A study of Mus musculus with 10 samples.

Results

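The transcription factors of the epithelial-mesenchymal transition (Snai1, Snai2, Twist1, Twist2, Zeb1 and Zeb2), the cadherins Cdh1, Cdh2 and Cdh3 and the filament gene Vim were followed in 4T1 mammary tumors with and without a guide RNA against TAZ. The 10 genes were taken by name, with no threshold on their values. All 10 were found among the 17864 genes of the count table, and all 10 passed the filter on low counts that left 14816 genes for testing. 4T1 is a mouse mammary carcinoma cell line. Both groups of tumors came from 4T1 cells that carry Cas9, 5 tumors from cells with a control guide RNA (sgCon) and 5 from cells with a guide RNA against Taz (sgTaz), whose gene symbol is Wwtr1. In the study's methods, 100000 cells were injected into mammary fat pad number 4 of female BALB/c or SCID mice that were 6 to 8 weeks old. The strain that carried the sequenced tumors was not given for each tumor, nor was it stated whether the edited cells were a pool or 1 clone, nor whether each tumor came from a mouse of its own, so the p-values below measure the spread between these tumors. RNA of whole tumors was sequenced, so that fewer cells of a type and less RNA per cell cannot be told apart. Libraries of sgCon tumors held 14753922 to 19595821 counts (median 17155103) and those of sgTaz tumors 12185383 to 18395558 (median 15566873).

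In the epithelial-mesenchymal transition, epithelial cells loosen their junctions and take on the shape and motility of mesenchymal cells. Factors of the Snail, Twist and ZEB families carry out this switch, and Snail and ZEB proteins bind E-boxes in the promoter of Cdh1 and repress it. Loss of E-cadherin (Cdh1) with gain of N-cadherin (Cdh2) and vimentin (Vim) is the usual readout. TAZ is a coactivator without a DNA-binding domain of its own, works mainly through TEAD factors, and is known for promoting mesenchymal features in mammary cells. Several of these genes are also used by cells that are not tumor cells. Zeb2 is expressed by macrophages and other leukocytes, Twist2 by fibroblasts, and Vim by nearly all stromal and blood cells.

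Taz itself was read first. Levels are given throughout as CPM, counts scaled to a common library total and between tumors by the trimmed mean of M-values. Wwtr1 was at 192, 181, 115, 171 and 156 CPM in sgCon tumors 1 to 5 and at 86.6, 104, 110, 139 and 102 CPM in sgTaz tumors 1 to 5. The sgTaz tumors were lower except that tumor 4 stood above sgCon tumor 3, so the groups overlapped. Its log2 fold change, sgTaz against sgCon, was -0.59 ± 0.151 (SE, n = 5 per group), with an adjusted p of 0.0960 by edgeR. DESeq2 gave an adjusted p of 0.0151, and over 18 alternatives the adjusted p was between 0.0151 and 0.233. A cut by Cas9 need not lower the RNA of its target. For Yap1, the homologue of Taz, the mean CPM was 155 ± 24.8 in sgCon and 190.4 ± 22.03 in sgTaz tumors (SD, n = 5 per group), with an adjusted p of 0.185 by edgeR.

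A pair of tumors stood apart from their groups. The summed CPM of 7 lymph node stroma markers, among them Glycam1, Madcam1 and Ccl19, was 142, 162, 807, 40.0 and 286 in sgCon tumors 1 to 5 and 1.66, 1.55, 5.36, 7.61 and 385 in sgTaz tumors 1 to 5. sgCon tumor 3 was the highest of all, and sgTaz tumor 5 was the only one of its group within the sgCon range. The same tumor of each group was highest for the 7 B cell markers, with 807 CPM in sgCon tumor 3 against 64.7 to 376 CPM in the other sgCon tumors and 172 CPM in sgTaz tumor 5 against 7.56 to 20.6 CPM in the other sgTaz tumors. Epithelial keratins were abundant in every tumor, with Krt8 at a mean of 819 CPM, and none of the 5 markers of epithelial tumor cells was at 0 in any tumor.

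The sequences before the start sites are shown for the factors with the lowest p-values. Twist1 and Twist2 are close paralogs whose differences had opposite signs, and Zeb2 had the lowest p of the 10 genes. Each run is the 250 bases before a RefSeq start site in GRCm38.p6, 5' to 3' on the strand of the gene, in lower case with matches to GGAATG, the core letters that TEAD factors bind, or to the E-box CANNTG in capitals on either strand. Twist1 lies on the plus strand at chr12:33957421-33957670, and its window is 62.4% G or C. Twist2 lies on the plus strand at chr1:91801211-91801460, and its window is 68.8% G or C. Zeb2 has 4 start sites in the table, and the window shown, on the minus strand at chr2:45110278-45110527, is the one of the 4 with a match, CATTCC, from base -157 to base -152 before the start.
Twist1: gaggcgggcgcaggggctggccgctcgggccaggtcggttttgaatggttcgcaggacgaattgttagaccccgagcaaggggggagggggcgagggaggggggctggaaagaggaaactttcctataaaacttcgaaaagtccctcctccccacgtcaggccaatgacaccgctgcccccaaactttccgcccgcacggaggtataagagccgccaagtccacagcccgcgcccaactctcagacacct
Twist2: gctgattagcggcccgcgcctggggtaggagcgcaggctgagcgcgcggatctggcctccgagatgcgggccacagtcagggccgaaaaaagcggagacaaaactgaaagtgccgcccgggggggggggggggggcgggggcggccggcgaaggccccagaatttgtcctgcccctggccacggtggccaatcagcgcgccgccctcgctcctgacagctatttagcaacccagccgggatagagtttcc
Zeb2: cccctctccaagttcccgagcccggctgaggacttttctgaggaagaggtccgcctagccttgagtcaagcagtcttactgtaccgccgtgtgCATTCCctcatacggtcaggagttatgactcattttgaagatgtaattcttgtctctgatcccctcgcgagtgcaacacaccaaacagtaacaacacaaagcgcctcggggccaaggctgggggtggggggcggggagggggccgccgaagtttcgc

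The windows of Twist1 and Twist2 held neither motif, and nor did that of Vim, on the plus strand at chr2:13574061-13574310 with 58.4% G or C. In the window of Snai1 at chr2:167537945-167538194 the only match was the E-box CACCTG from base -126 to base -121, which read from the other strand is the CAGGTG of Snail and ZEB proteins. Among 32851 windows of this length, 12.6% held GGAATG, 17.2% held CAGGTG and 66.2% held CANNTG, and the median share of G and C was 52.4%. These shares are per window, and Zeb2, with 4 windows, had more chances of a match than a gene with 1. A match is a description of letters and not a binding site. The promoter table held 5 of the 10 genes, and the others are named only.

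No member passed edgeR with adjustment over all genes, where Zeb2 had the lowest adjusted p, 0.0874. The background is nearly as empty, since 0.00675% of genes passed, 1 of 14816. That gene was Tmx4, a thioredoxin-related membrane protein, named here after its values were seen. At an unadjusted p below 0.05, 4 of the 10 members were past the line against 21.8% of all genes tested, with Zeb2 and Twist1 higher in sgTaz tumors and Twist2 and Cdh1 lower. DESeq2 called 2 members, Zeb2 and Twist2, where it called 6.75% of all genes. limma-voom with sample quality weights called 3, Zeb2, Twist2 and Cdh1, where it called 10.4% of all genes. The groups did not overlap for 1 member, Twist2, against 4.57% of all genes. The median log2 fold change was -0.18 over the 10 members and -0.02 over all genes, with 4 members above 0 and 46.98% of all genes above 0.

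**Figure D1:**
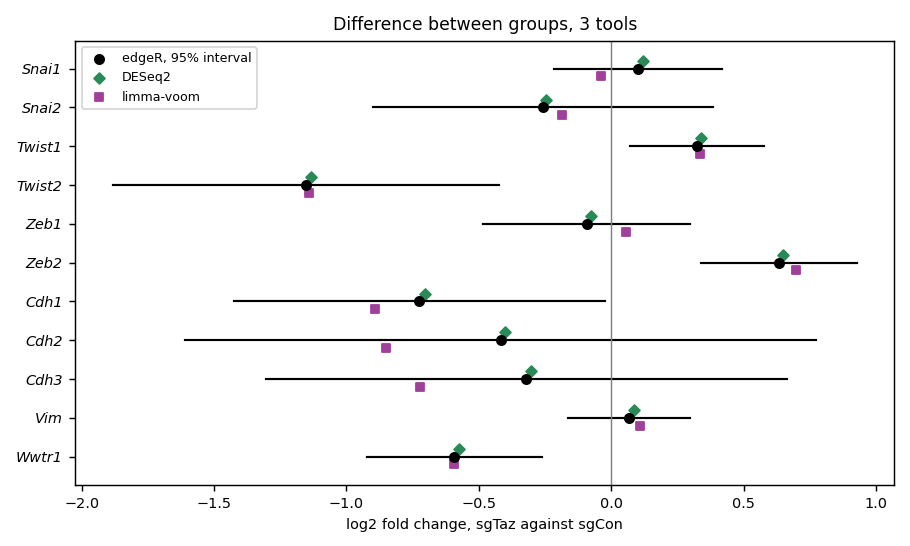
Log2 fold change of sgTaz against sgCon tumors for the 10 genes and Wwtr1. Black points and lines are edgeR with its 95% interval (n = 5 per group), diamonds DESeq2 and squares limma-voom, and the interval lies wholly above 0 for Zeb2 and Twist1 and wholly below 0 for Twist2, Cdh1 and Wwtr1.

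Zeb2, a zinc finger repressor of Cdh1, was the member with the smallest p. Its gene lies on the minus strand of chr2:44983632-45117395 in mm10. Zeb2 was at 86.5, 110.9, 90.3, 89.7 and 77.5 CPM in sgCon tumors and at 128, 104, 157, 170 and 147 CPM in sgTaz tumors. In all, 4 of the sgTaz tumors were above every sgCon tumor, and tumor 2 fell inside the sgCon range. Its log2 fold change was 0.63 ± 0.134 (SE, n = 5 per group), with a 95% interval from 0.34 to 0.93 and an unadjusted p of 0.000565 by edgeR. The gene rose by DESeq2, with a log2 fold change of 0.65 and an adjusted p of 0.00209, and by limma-voom, with 0.70 and 0.0228. Over 18 alternatives the log2 fold change was between 0.56 and 0.73 and the adjusted p between 0.00209 and 0.233. Without sgTaz tumor 2 the gene passed in edgeR as well, with an adjusted p of 0.0339. The antisense gene Zeb2os shares 653 exon bases with Zeb2, and the strand setting of the counting was not stated, so reads in the shared bases cannot be told apart. Zeb2os itself was between 4.999 and 9.769 CPM, with a log2 fold change of 0.11 ± 0.192 (SE).

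Macrophage markers moved with Zeb2. All 11 of 11 listed markers had a higher mean in sgTaz tumors, where 46.98% of all genes were higher. Of the 11, 4 rose by DESeq2 and 5 by limma-voom, which called 6.75% and 10.4% of all genes. edgeR called 1 of 14816 genes and none of these markers. Their summed CPM was 1166, 1809, 1458, 1963 and 866 in sgCon tumors 1 to 5 and 2063, 1712, 2174, 2331 and 2314 in sgTaz tumors 1 to 5. As with Zeb2, sgTaz tumor 2 was the lowest of its group. The most abundant of these markers was C1qa, a complement subunit, with 394 ± 146 CPM (SD, n = 5) in sgCon and 492 ± 48.7 CPM (SD, n = 5) in sgTaz tumors, and none was at 0 in any tumor. Markers of all leukocytes went the other way, with 5 of 5 lower in sgTaz tumors and sums of 1137, 1362, 2925, 1045 and 1530 CPM in sgCon tumors against 918, 773, 969, 957 and 1403 CPM in sgTaz tumors. None of these 5 was called by edgeR or DESeq2, and 1 fell by limma-voom, against the same shares of all genes. The part of either list in the difference of Zeb2 was not tested beyond 2 ratios. Zeb2 over Ptprc, the gene of CD45, was 1.36 higher as a log2 ratio in sgTaz tumors, with p = 0.0159 by an exact two-sided permutation test and 0.111 after adjustment over the 7 ratios tested. Zeb2 over Adgre1, the gene of the macrophage antigen F4/80, differed by -0.42 (sgTaz minus sgCon), with an exact p of 0.0873 and an adjusted p of 0.204, and by -0.22 without sgCon tumor 5. The log2 ratio of Zeb2 to Adgre1 had a mean of 1.12 ± 0.51 (log2, SD, n = 5) in sgCon and 0.70 ± 0.18 (log2, SD, n = 5) in sgTaz tumors. The smallest p that 5 against 5 tumors can give is 0.00794.

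Zeb1, the other ZEB factor, showed no difference past the spread between tumors. It was at 25.2, 25.3, 37.1, 21.4 and 27.3 CPM in sgCon tumors and at 23.5, 17.2, 28.1, 27.1 and 31.7 CPM in sgTaz tumors. The groups overlapped over most of their range, and the highest value of each group was in the tumor with the most lymph node and B cell markers, sgCon tumor 3 and sgTaz tumor 5. Its log2 fold change was -0.09 ± 0.178 (SE, n = 5 per group), with a 95% interval from -0.48 to 0.30, an adjusted p of 0.789 by edgeR and a sign that turned without sgCon tumor 3 (0.05). The difference between Zeb1 and Zeb2 was not itself tested.

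Twist1 and Twist2, basic helix-loop-helix factors that bind E-boxes, stood on opposite sides of 0. Twist2, on the plus strand of chr1:91801461-91848028, was at 6.73, 4.76, 6.24, 5.88 and 12.5 CPM in sgCon tumors and at 1.53, 4.07, 2.52, 3.48 and 4.66 CPM in sgTaz tumors. Every sgTaz tumor was below every sgCon tumor, but sgCon tumor 2 and sgTaz tumor 5 nearly touched, and sgCon tumor 5 was far above the rest of its group. The values rest on 24 to 183 counts per tumor. For Twist2 the log2 fold change was -1.15 ± 0.333 (SE, n = 5 per group), with a 95% interval from -1.88 to -0.42 and an adjusted p of 0.108 by edgeR. The gene fell by DESeq2 (adjusted p of 0.0197) and by limma-voom (0.0418). Over 18 alternatives the adjusted p was between 0.0197 and 0.255 and the log2 fold change between -1.32 and -0.86, the smallest size without sgCon tumor 5. The antisense gene Gm29100 shares 1477 of the 3174 exon bases of Twist2, and without a stated strand setting its reads cannot be told apart from those of Twist2. Gm29100 had a log2 fold change of -0.39 ± 0.329 (SE), with an adjusted p of 0.513 by edgeR.

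Fibroblast markers were split between the groups. Of 10 listed, 7 had a higher and 3 a lower mean in sgTaz tumors, with a median log2 fold change of 0.10, or -0.07 without sgTaz tumor 5. Their summed CPM was 723, 750, 653, 624 and 843 in sgCon tumors and 620, 663, 769, 918 and 879 in sgTaz tumors, a pair of overlapping ranges. Pdgfra, a receptor of fibroblasts, was at 83.9 ± 20.9 CPM (SD, n = 5) in sgCon and 179 ± 61.9 CPM (SD, n = 5) in sgTaz tumors and rose by DESeq2 (adjusted p of 0.00237), with an adjusted p of 0.0960 by edgeR. Thy1, named after its values were seen, fell by DESeq2. The most abundant marker, Col6a3, a collagen chain, had a log2 fold change of -0.05 ± 0.229 (SE). None of the 10 was at 0 in any tumor.

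Twist1, on the plus strand of chr12:33957671-33959829, was at 28.4, 30.5, 30.6, 34.9 and 27.3 CPM in sgCon tumors and at 40.7, 36.1, 36.3, 46.2 and 30.5 CPM in sgTaz tumors. In all, 4 of the sgTaz tumors were above all sgCon tumors, and sgTaz tumor 5 was inside their range. It had a log2 fold change of 0.32 ± 0.115 (SE, n = 5 per group), with a 95% interval from 0.07 to 0.58, an unadjusted p of 0.0167 and an adjusted p of 0.153 by edgeR. No alternative called Twist1, with adjusted p between 0.0812 and 0.317 over the 18 run.

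The Snail family showed small differences within the spread between tumors. Snai1, whose protein is short-lived and kept low by Gsk3b, was at 24.6, 25.3, 15.6, 21.5 and 24.8 CPM in sgCon tumors and at 28.3, 25.1, 22.5, 24.1 and 19.9 CPM in sgTaz tumors. The sgTaz values lay within the sgCon range except that of tumor 1, the highest of all. For Snai1 the log2 fold change was 0.10 ± 0.144 (SE, n = 5 per group), with a 95% interval from -0.22 to 0.42 and an adjusted p of 0.712 by edgeR. The lowest value of each group was in the pair of tumors that stood apart, and the log2 fold change of Snai1 was 0.0028 without sgCon tumor 3 and 0.16 without sgTaz tumor 5. Snai2 (Slug), a factor of basal mammary cells, was at 2.34, 1.55, 2.99, 1.83 and 1.58 CPM in sgCon tumors and at 1.02, 2.20, 1.39, 1.54 and 2.47 CPM in sgTaz tumors. The ranges overlapped, with 3 sgTaz tumors below every sgCon tumor, the nearest by very little, on 16 to 48 counts per tumor. For Snai2 the log2 fold change was -0.26 ± 0.293 (SE, n = 5 per group), with a 95% interval from -0.90 to 0.38 and an adjusted p of 0.640 by edgeR. The highest value of each group was in the same pair of tumors, and the log2 fold change of Snai2 was -0.08 without sgCon tumor 3 and -0.42 without sgTaz tumor 5.

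**Figure D2:**
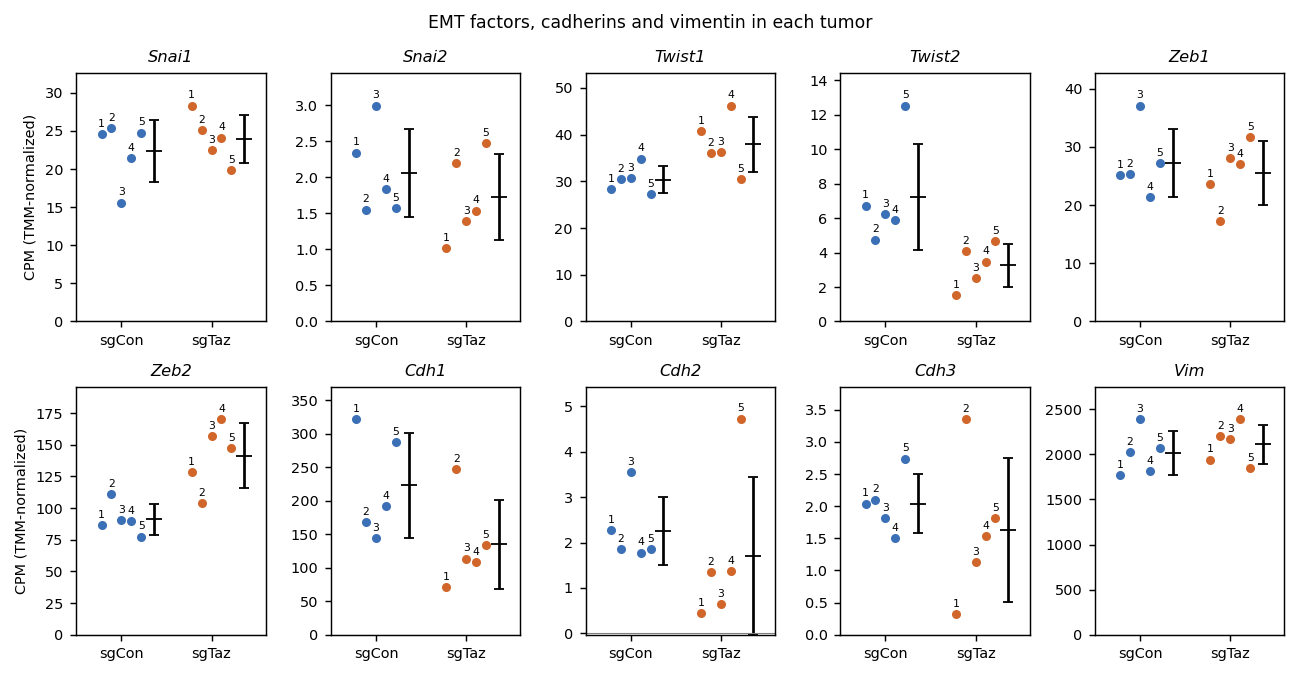
CPM of each of the 10 genes in the 5 sgCon (blue) and 5 sgTaz (orange) tumors, numbered, with the group mean and SD in black. Twist2 is the gene whose groups do not overlap, Zeb2 and Twist1 have 4 sgTaz tumors above all sgCon tumors, and sgTaz tumors 2 and 5 lie apart from their group for Cdh1 and Cdh2, respectively.

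Cdh1, the adhesion molecule of epithelial junctions, was lower in 4 of 5 sgTaz tumors. Its gene lies on the plus strand of chr8:106603351-106670246, next to Cdh3. Cdh1 was at 322, 168, 144, 192 and 288 CPM in sgCon tumors and at 71.0, 247, 114, 109 and 134 CPM in sgTaz tumors. Tumors 1, 3, 4 and 5 of sgTaz lay under the whole sgCon group, while tumor 2 was above 3 of the 5 sgCon tumors. Its log2 fold change was -0.72 ± 0.319 (SE, n = 5 per group), with a 95% interval from -1.42 to -0.03, an unadjusted p of 0.0435 and an adjusted p of 0.216 by edgeR. Without sgTaz tumor 2 it was -1.06, with an adjusted p of 0.0629. It was -0.55 without sgCon tumor 1 (adjusted p of 0.332) and -0.56 without sgTaz tumor 1 (0.337). limma-voom, which gives outlying tumors less weight, had Cdh1 fall by 0.89 on the log2 scale with an adjusted p of 0.0415, while DESeq2 gave an adjusted p of 0.136. The adjusted p was between 0.0415 and 0.392 over 18 alternatives.

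Epithelial tumor cell markers moved with Cdh1. All 5 of 5 (Epcam, Krt7, Krt8, Krt18 and Krt19) had a lower mean in sgTaz tumors, where 46.98% of all genes were higher. DESeq2, which called 6.75% of all genes, called Krt19, which fell, and edgeR called none of these markers. Their summed CPM was 4191, 2307, 1849, 2595 and 2605 in sgCon tumors and 1457, 3119, 1816, 1803 and 1846 in sgTaz tumors. Within each group the order of tumors was that of Cdh1, with sgTaz tumor 2 high and sgTaz tumor 1 lowest. The most abundant marker was Krt8, a keratin of simple epithelia, with 928 ± 259 CPM (SD, n = 5) in sgCon and 711 ± 107 CPM (SD, n = 5) in sgTaz tumors, and none was at 0 in any tumor. Cdh1 was also set against these markers inside each tumor. Cdh1 over Epcam, an adhesion molecule of carcinoma cells, had a log2 ratio of -0.47 ± 0.53 (SD, n = 5) in sgCon and -0.83 ± 0.30 (SD, n = 5) in sgTaz tumors, with an exact permutation p of 0.246 and an adjusted p of 0.344. The difference of -0.36 was between -0.49 (without sgCon tumor 4) and -0.16 (without sgCon tumor 3) with 1 tumor left out, and -0.06 between group medians. Cdh1 over Krt18, a simple keratin, had a log2 ratio of -2.10 ± 0.28 (SD, n = 5) in sgCon and -2.44 ± 0.35 (SD, n = 5) in sgTaz tumors, with an exact permutation p of 0.135 and an adjusted p of 0.236. The difference of -0.33 was between -0.44 (without sgTaz tumor 2) and -0.21 (without sgTaz tumor 1) with 1 tumor left out. The part of the share of epithelial cells in the difference of Cdh1 was not tested further.

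Cdh2, the N-cadherin of mesenchymal and neural cells, was low in all tumors. It was at 2.28, 1.85, 3.56, 1.78 and 1.85 CPM in sgCon tumors and at 0.446, 1.36, 0.643, 1.38 and 4.73 CPM in sgTaz tumors, from 7 to 65 counts. Here 4 sgTaz tumors lay under the whole sgCon group, and sgTaz tumor 5 was the highest of all 10. The highest value in each group was in the tumor with the most lymph node stroma markers. For Cdh2 the log2 fold change was -0.42 ± 0.544 (SE, n = 5 per group), with a 95% interval from -1.61 to 0.77 and an adjusted p of 0.685 by edgeR. Without sgTaz tumor 5 it was -1.25, with an adjusted p of 0.113, and without sgCon tumor 3 it was -0.20. Other tumors moved it as well, to -0.17 without sgTaz tumor 1 and -0.20 without sgTaz tumor 3, and limma-voom gave -0.85. The 7 lymph node stroma markers, 5 of which passed the filter, had a lower mean in sgTaz tumors in 5 of 5 cases. None of the 5 was called by edgeR or DESeq2, and 4 fell by limma-voom, where it called 10.4% of all genes. Their most abundant gene was Glycam1, a mucin of lymph node venules, and 5 of the 7 were at 0 in at least 1 tumor. Their part in the values of Cdh2 was not tested.

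Cdh3, the P-cadherin of basal mammary cells, was at 2.04, 2.10, 1.81, 1.5 and 2.74 CPM in sgCon tumors and at 0.318, 3.36, 1.13, 1.54 and 1.82 CPM in sgTaz tumors. sgTaz tumor 2 was the highest of all and sgTaz tumor 1 the lowest, with 52 and 5 counts. The fitted log2 fold change was -0.32 ± 0.449 (SE, n = 5 per group), with a 95% interval from -1.30 to 0.66 and an adjusted p of 0.706 by edgeR, and it was -0.77 without sgTaz tumor 2 and -0.05 without sgTaz tumor 1. Of 6 basal and myoepithelial markers, 5 had a lower mean in sgTaz tumors, with a median log2 fold change of -0.16. The sums of the 6 were 194.7, 153.6, 182.3, 158.2 and 209.8 CPM in sgCon tumors and 41.2, 154.1, 80.4, 89.5 and 104.2 CPM in sgTaz tumors. Here too sgTaz tumor 1 was lowest and tumor 2 highest of its group. Krt14, a keratin of basal cells and the most abundant of them, was at 136 ± 28.0 CPM (SD, n = 5) in sgCon and 61.5 ± 33.6 CPM (SD, n = 5) in sgTaz tumors and fell by DESeq2 (adjusted p of 0.00875), with an adjusted p of 0.100 by edgeR. The part of these markers in the values of Cdh3 was not tested.

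Vim, the intermediate filament of mesenchymal cells, on the plus strand of chr2:13573927-13582826, was the steadiest member. It was at 1765, 2025, 2388, 1816 and 2069 CPM in sgCon tumors and at 1940, 2199, 2169, 2392 and 1843 CPM in sgTaz tumors. The groups covered the same range. Its log2 fold change was 0.07 ± 0.105 (SE, n = 5 per group), with a 95% interval from -0.16 to 0.30 and an adjusted p of 0.740 by edgeR. This interval is the narrowest of the 10 members, and with 1 tumor left out the log2 fold change of Vim was between 0.02 (without sgTaz tumor 4) and 0.14 (without sgCon tumor 3).

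The balance of mesenchymal to epithelial genes was read as ratios inside each tumor. The log2 ratio of Vim to Cdh1 was 2.45, 3.59, 4.05, 3.24 and 2.85 in sgCon tumors and 4.77, 3.15, 4.25, 4.46 and 3.78 in sgTaz tumors. Among the sgTaz tumors, 3 were above all sgCon tumors, and the mean difference was 0.85, with an exact permutation p of 0.0714 and an adjusted p of 0.204 over 7 ratios. Cdh2 over Cdh1, the cadherin switch, had a log2 ratio of -6.52 ± 0.75 (SD, n = 5) in sgCon and -6.51 ± 1.06 (SD, n = 5) in sgTaz tumors, with an exact permutation p of 0.976. The difference of 0.02 was 0.33 without sgCon tumor 3 and -0.41 without sgTaz tumor 5. Cdh3 over Cdh1 had a log2 ratio of -6.64 ± 0.43 (SD, n = 5) in sgCon and -6.43 ± 0.54 (SD, n = 5) in sgTaz tumors, with an exact permutation p of 0.476, and the difference of 0.22 was between 0.07 (without sgCon tumor 1) and 0.44 (without sgTaz tumor 1) with 1 tumor left out and 0.50 between group medians. None of the 7 ratios passed after adjustment, which a single ratio could not have done, since the smallest adjusted p of 1 ratio alone is 0.0556.

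Levels of the 10 genes were compared with each other per kilobase of annotated exon, over all 10 tumors. Vim was the highest at 434.4 ± 47.6 CPM per kb (SD, n = 10), followed by Cdh1 at 39.1 ± 18.1, Twist1 at 21.0 ± 3.65 and Snai1 at 14.3 ± 2.18 CPM per kb. Zeb2 was at 5.83 ± 1.64, Zeb1 at 2.57 ± 0.53, Twist2 at 1.65 ± 0.957 and Snai2 at 0.936 ± 0.295 CPM per kb. Cdh3 at 0.419 ± 0.190 and Cdh2 at 0.246 ± 0.161 CPM per kb were the lowest. Of the 3 cadherins among the members, Cdh1 was thus far the highest. The upper gene of each neighbouring pair was higher in all 10 tumors except for Cdh1 over Twist1 and Cdh3 over Cdh2 (8 of 10 each) and Zeb1 over Twist2 and Twist2 over Snai2 (9 of 10 each). For 3 of these pairs the mean log2 difference was within its SD over the tumors, and for Cdh3 over Cdh2 it was 0.86 with an SD of 0.81, so these neighbours were hardly set apart. With the longest transcript in place of all exons, Zeb2 was at 12.7 CPM per kb and Zeb1 at 4.55 CPM per kb. Snai1 stayed at 14.3 CPM per kb, close to Zeb2 on that length. The count of 10 of 10 tumors for Snai1 over Zeb2 therefore holds for all exons only.

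**Figure D3:**
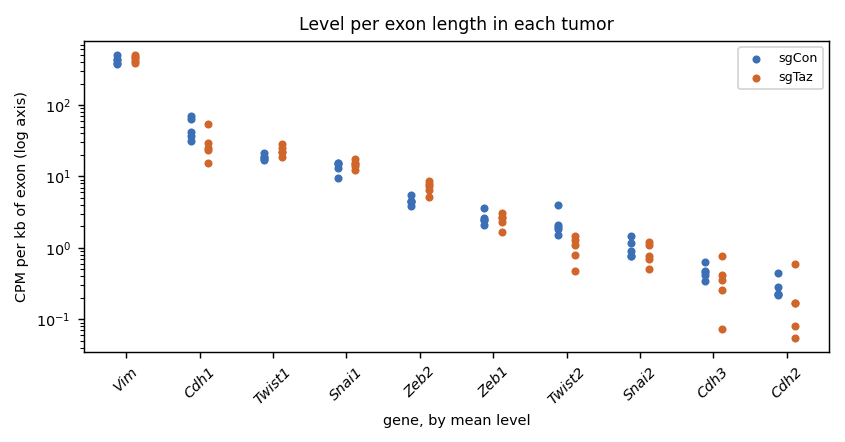
Level of each gene per kilobase of exon on a log axis, in order of the mean over 10 tumors, with 1 point per tumor (sgCon blue, sgTaz orange). Vim lies far above Cdh1, and the lowest genes, Cdh3 and Cdh2, are also the most spread.

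Variation over tumors was smallest for Vim, whose highest tumor was 1.36-fold above its lowest. The same ratio of CPM was 1.70 for Twist1, 1.82 for Snai1, 2.15 for Zeb1 and 2.20 for Zeb2. It was 2.94 for Snai2, 4.54 for Cdh1 and 8.20 for Twist2. For the sparse cadherins it was widest, at 10.6 for both Cdh2 and Cdh3.

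The genes most like each member were taken from 11539 genes with a mean of at least 5 CPM, by Pearson's r of log2 CPM over the 10 tumors after the group means were taken off. These values share libraries and describe these tumors only. They are the highest of 11539 genes over 10 tumors, a search in which a high r can arise from the picking alone. Cdh1 was closest to St14, the gene of the epithelial protease matriptase (r = 0.978), Atp2c2, a calcium pump (0.977), and Dsp, the gene of desmoplakin (0.975). Cdh3 was closest to Gpr176, a receptor (0.977), Pkp2, the gene of the junction protein plakophilin 2 (0.969), and Cd24a, a surface antigen of epithelial and other cells (0.963). Zeb2 was closest to Adgrf5, an adhesion receptor (0.972), Slc16a7, a monocarboxylate carrier (0.970), and Entpd1, the gene of CD39 (0.954). Zeb1 was closest to Wdfy4 (0.982), Setdb2 (0.977) and Itga4, an integrin chain of leukocytes (0.975). When the farthest pair of tumors was left out, the lowest of these values was 0.734, for Cdh3 with Pkp2. The tumors left in had also been used to pick the partners, so such values are no check of them.

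The other members had partners of more mixed kinds. Twist2 was closest to Cacna1c, a calcium channel (r = 0.918), Fads3 (0.910) and Crabp1, a retinoic acid binding protein (0.907), and Cdh2 to Jam3, a junction molecule (0.918), Zfp984 (0.907) and Glycam1 (0.890). Twist1 was closest to Sugt1 (0.971), Lsm10 (0.959) and Ccnh (0.946). Vim was closest to Camk2d (0.942), Fam160b2 (0.937) and Slc41a2 (0.920). Snai1 was closest to Zfp664 (0.959), Syde2 (0.952) and Ergic2 (0.934), and Snai2 to Gramd1c (0.952), Atmin (0.898) and Atg12 (0.893). Without the farthest pair of tumors, Cdh2 with Glycam1 was at 0.672 and with Jam3 at 0.688, and the other values of these members were at 0.739 or above. Among the members themselves, the highest values were 0.844 for Snai2 with Cdh2, 0.801 for Cdh1 with Cdh3 and 0.797 for Twist2 with Cdh3. The lowest was -0.72 for Snai1 with Snai2. Zeb2 and Cdh1 had an r of -0.56, and Zeb1 and Zeb2 one of 0.51.

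Most epithelial genes beyond Cdh1 also had a lower mean in sgTaz tumors, but few passed a test. Of 24 listed, all tested, 22 had a lower and 2 a higher mean in sgTaz tumors, with a median log2 fold change of -0.39 against -0.02 for all genes. None passed edgeR, 4 lower and 1 higher were at an unadjusted p below 0.05, where 21.8% of all genes were, and DESeq2, which called 6.75% of all genes, called 1, Krt19, which fell (log2 fold change -0.83 ± 0.271, SE, adjusted p of 0.0374 by DESeq2 and 0.129 by edgeR). Dsp, a desmosome protein, was at 80.6 ± 26.7 CPM (SD, n = 5) in sgCon and 47.2 ± 21.5 CPM (SD, n = 5) in sgTaz tumors. Tjp1, a tight junction scaffold also used by endothelium, went the other way, from 183 ± 48.4 to 272 ± 95.3 CPM (SD, n = 5 per group). The summed CPM of the 24 ranged from 2339 to 5583 over sgCon and from 2170 to 4430 over sgTaz tumors. The highest sgTaz sum was again that of tumor 2, and 5 of the 24 genes are the tumor cell markers named above.

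Partners of cadherins at the junction were near level. Of 9 listed catenins and partners, 6 were tested, 4 with a higher and 2 with a lower mean, and none was called by edgeR or DESeq2. Ctnnb1, the gene of beta-catenin, was at 1036 ± 126 CPM (SD, n = 5) in sgCon and 1206 ± 62.9 CPM (SD, n = 5) in sgTaz tumors, with an adjusted p of 0.201 by edgeR. Of 20 other cadherins, 13 were in the table and 8 were tested, 3 with a higher and 5 with a lower mean and none called by either tool. Cdh5, the cadherin of endothelium, was the most abundant by CPM, with 113 ± 27.7 CPM (SD, n = 5) in sgCon and 140.4 ± 44.6 CPM (SD, n = 5) in sgTaz tumors. Cdh13 was at 26.3 ± 7.19 and 35.7 ± 14.4 CPM (SD, n = 5 per group).

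Mesenchymal genes were split. Of 20 listed, all tested, 9 had a higher and 11 a lower mean in sgTaz tumors, with a median log2 fold change of -0.07, or -0.12 without sgTaz tumor 5. None passed edgeR, and DESeq2, which called 6.75% of all genes, called 2, both of which fell. Among them, S100a4, a calcium-binding protein of fibroblasts and motile cells, was at 194.3 ± 61.2 CPM (SD, n = 5) in sgCon and 113 ± 17.8 CPM (SD, n = 5) in sgTaz tumors (adjusted p of 0.0142 by DESeq2 and 0.0983 by edgeR). Mmp14, a membrane-bound metalloproteinase, had a log2 fold change of 0.26 ± 0.0881 (SE) and an adjusted p of 0.141 by edgeR. Fn1, the gene of fibronectin, was the most abundant of the list by CPM, with a log2 fold change of 0.28 ± 0.229 (SE) and an adjusted p of 0.497 by edgeR.

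Other transcription factors linked to the transition were mostly level as well. Of 14 listed, 12 were tested, 7 with a higher and 5 with a lower mean. None passed edgeR, and DESeq2, which called 6.75% of all genes, called 2 that rose, among them Foxc1. This forkhead factor was at 84.9 ± 17.2 CPM (SD, n = 5) in sgCon and 128 ± 29.9 CPM (SD, n = 5) in sgTaz tumors (adjusted p of 0.0273 by DESeq2 and 0.110 by edgeR). Tcf4, an E protein and the most abundant of the list by CPM, had a log2 fold change of 0.19 ± 0.116 (SE).

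Among 15 corepressors and genes that control the stability of these factors, 6 had a higher and 9 a lower mean. None passed edgeR, and DESeq2, which called 6.75% of all genes, called 2 that rose. Ctbp2, a corepressor that ZEB proteins recruit, was at 38.3 ± 5.33 CPM (SD, n = 5) in sgCon and 52.4 ± 5.89 CPM (SD, n = 5) in sgTaz tumors (adjusted p of 0.0128 by DESeq2 and 0.0960 by edgeR). Gsk3b, the kinase that marks Snai1 for degradation, was at 83.6 ± 7.96 and 99.5 ± 6.13 CPM (SD, n = 5 per group; adjusted p of 0.0336 by DESeq2 and 0.125 by edgeR). Of 5 filament genes related to Vim, 4 were tested, and Des, the muscle filament desmin, fell by DESeq2 (16.04 ± 8.49 and 6.86 ± 4.43 CPM, SD, n = 5 per group, adjusted p of 0.0492 by DESeq2 and 0.153 by edgeR). Nes, the gene of nestin, was at 87.6 ± 15.2 and 103 ± 16.4 CPM (SD, n = 5 per group). limma-voom, which called 10.4% of all genes, called 2 of 24 epithelial genes (Dsp and Cldn7, which fell) and 3 of 20 mesenchymal genes, which fell. Of the 12 other transcription factors tested, it called 2 that rose. Of the 15 corepressors and stability genes, it called Ctbp2 and Gsk3b, which rose, and Hdac2, which fell. It also called Des, which fell, and none of the junction partners or other cadherins.

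**Figure D4:**
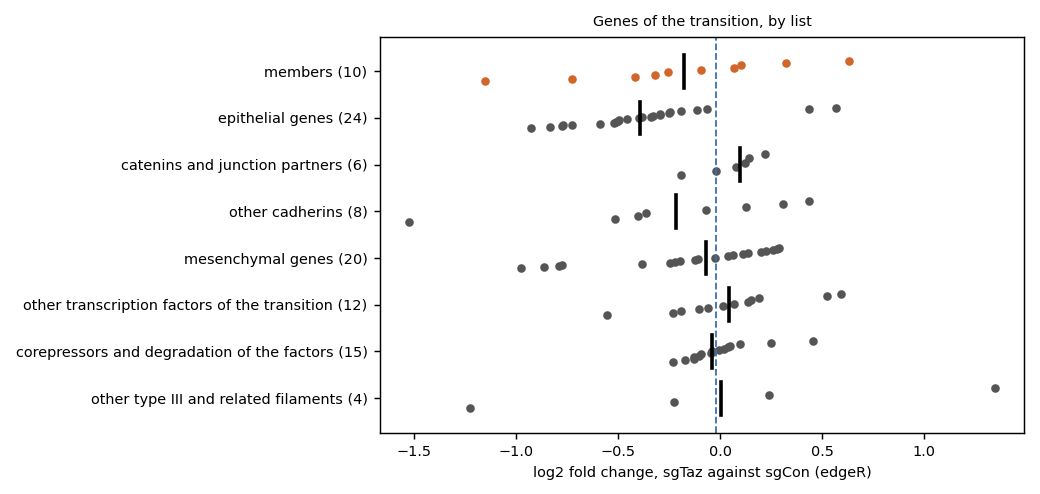
Log2 fold change by edgeR of every tested gene of the 10 members (orange) and of 7 lists of related genes (grey), with the number of genes in brackets. Black bars are medians and the dashed line is the median of all genes; epithelial genes lie mostly to the left, with a median of -0.39.

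Further markers of other cells differed between the groups or tumors. B cell markers had a lower mean in sgTaz tumors for 7 of 7 (median log2 fold change -3.14, or -5.89 without sgTaz tumor 5) and T cell markers for 6 of 6 (-1.57, with 3 that fell by DESeq2), and neither list had a gene that passed edgeR. Neutrophil markers were lower for 6 of 6 tested (-0.96), adipocyte markers higher for 7 of 7 tested (1.42), and none of either was called by edgeR or DESeq2. By limma-voom, 6 B cell, 3 T cell and 3 neutrophil markers fell, and no adipocyte marker was called. Of all genes, DESeq2 called 6.75% and limma-voom 10.4%. Adipocyte sums were 47.4, 57.1, 9.11, 13.8 and 32.1 CPM in sgCon tumors and 4.84, 6.85, 143, 151 and 183 CPM in sgTaz tumors, so that sgTaz tumors 3 to 5 differed from tumors 1 and 2. Endothelial markers were split, with 4 of 9 higher and 5 lower and a median of -0.04, or -0.12 without sgTaz tumor 5. Muscle and Schwann cell markers were sparse, with 3 of 6 and 3 of 4 past the filter. Of the 6 muscle markers, 4 fell by DESeq2, which was run without the filter, namely Atp2a1, a pump of skeletal muscle (adjusted p of 0.00989), and, named after their values were seen, Acta1 (0.00018), Ckm (0.0143) and Myh4 (0.0260). Tnnt3, the most abundant of them, went the other way (8.13 ± 1.53 and 12.2 ± 10.3 CPM, SD, n = 5 per group) and was not called (adjusted p of 0.388 by DESeq2). The summed CPM of the 6 muscle markers was 46.9 in sgCon tumor 3, which stood apart, against 8.56 to 18.02 in the other sgCon tumors and 6.75 to 31.6 in sgTaz tumors. Without sgTaz tumor 5, edgeR called 172 of 14974 genes. Among them were 6 B cell and 4 lymph node stroma markers, while none of the 7 lists of genes of the transition had a called gene. The part of these cells in the members' values was not tested.

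**Figure D5:**
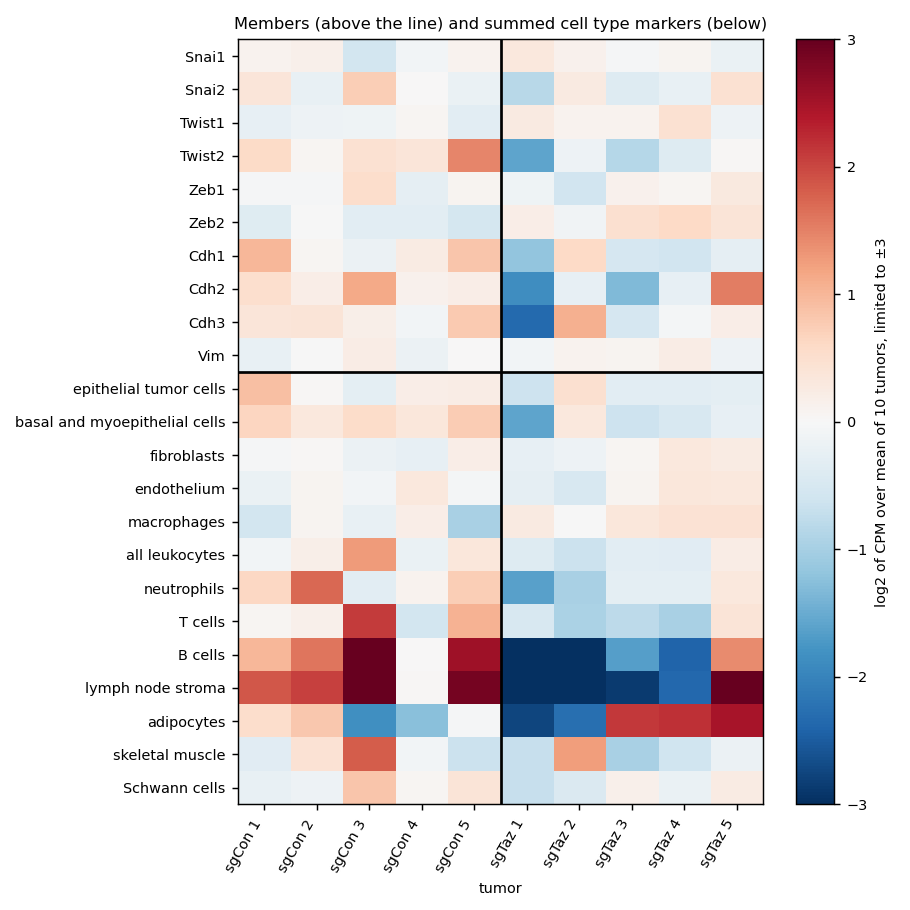
Members (above the line) and summed cell type markers (below the line) in each tumor, as the log2 of CPM over the geometric mean of the 10 tumors, with the color scale ending at -3 and 3. sgCon tumor 3 and sgTaz tumor 5 are high in lymph node stroma markers, and Cdh1 and the epithelial tumor cell markers are both lowest in sgTaz tumor 1 and high in sgTaz tumor 2.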

How the data were processed

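RNA of 5 sgCon and 5 sgTaz tumors was sequenced by the authors, mapped to mm10 with STAR in 2 passes with GENCODE annotation, checked with RSeQC and counted with featureCounts of Subread. The deposited values are these raw counts of the authors for 17864 genes, without normalization; tool versions and the strand setting are not given in the sources used here. Columns were matched to tumors by title, and 5 further columns were not used. Identifiers without their version were matched to GENCODE M21 (17860 found).

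Counts were tested in R 4.3.3 with edgeR 4.0.16 (TMM scaling, genes kept by filterByExpr with the groups, quasi-likelihood F-test, Benjamini-Hochberg over 14816 genes, threshold 0.05). SE is the log2 fold change over the square root of F, and 95% intervals use the t quantile of the fit. DESeq2 1.42.0, limma 3.58.1, other scalings and filters, each tumor left out and a replicate block were alternatives. The authors' methods use DESeq2, here an alternative. Ratios used log2 CPM with a prior count of 2 and exact two-sided permutation tests in Python 3.11.15 with numpy 2.4.6. 3 counts are a floor of 1.53e-05% to 2.46e-05% of a tumor's total, for counting error only. No pair of tumors of 1 group agreed within sampling noise. No batch was given.

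The members and lists were chosen with earlier results of these data known. Named are the members, Wwtr1 and Yap1, up to 4 genes of lowest p per list of the pathway, the most abundant and lowest-p gene per cell type, the genes of the ratios and the 3 most alike genes per member, except some that are not reported here; genes outside this rule serve as examples of a list or as its most abundant gene. Scripts were tested on simulated data.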

Additional observations from a re-analysis of the deposited data

Results flagged for a closer look

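In 34 groups of 5 tumors, the members' log2 levels and the 7 ratios were searched for a tumor far from the rest of its group, and 2 were found where chance gives 1.7. The log2 ratio of Cdh1 to Krt18 was -1.62 in sgCon tumor 5, against -2.30 to -2.12 in the other 4 sgCon tumors. The log2 ratio of Zeb2 to Ptprc was -1.31 in sgTaz tumor 5, against -0.42 to -0.35 in the other 4 sgTaz tumors. sgTaz tumor 5 is the tumor of its group with the highest sums of B cell, T cell and lymph node stroma markers.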

How the results depend on the processing

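The number of genes called was 1 of 14816 and depended on the tool and the tumors. DESeq2 called 1085 and limma-voom with sample quality weights 1546. No filter on low counts gave 0 genes by edgeR (3610 at an unadjusted p below 0.05), robust moderation 0 (3199), and a minimum of 10 counts in each of the tumors 5. Leaving out 1 tumor gave between 0 and 172 genes, with 172 without sgTaz tumor 5, 75 without sgTaz tumor 2 and 5 without sgCon tumor 3 or sgCon tumor 4. The number of members called, 0 in edgeR, was 2 by DESeq2 and 3 by limma-voom, and between 0 and 1 when 1 tumor was left out, the 1 being Zeb2 without sgTaz tumor 2. Wwtr1 passed by DESeq2 and limma-voom and under none of the 16 other alternatives. No called value changed its sign. Among members never called, Snai1 was -0.04 by limma-voom, and Zeb1 was 0.06 by limma-voom, 0.05 without sgCon tumor 3 and 0.02 without sgTaz tumor 2. The 7 ratios were also read under a prior count of 0.5, group medians, each tumor left out and a replicate block, and none passed, but this says nothing of their stability, since the smallest p is 0.0625 for sign flips of 5 pairs and 0.0159 with 1 tumor left out, before adjustment over 7. Tumors with the same number did not deviate together (r between -0.24 and 0.22 over genes, and number 5 alone was closest to its own), so numbers were not read as pairs. With a replicate block, 0 genes and 0 members were called, with 2462 genes at an unadjusted p below 0.05. Levels per length moved with the longest transcript to 704.2 CPM per kb for Vim and 0.410 CPM per kb for Cdh2, and as given above for Zeb1 and Zeb2. Sparse genes (Snai2, Cdh2, Cdh3) limit what these depths can show.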
